A study of Mus musculus with 2 samples.

Results

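Transcripts of 10 genes that mark macrophages and other leukocytes were examined in ureters of E14.5 mouse embryos. The genes were Ptprc, Lyz2, Csf1r, Cd68, Mrc1, C1qa, C1qb, C1qc, Fcer1g and Tyrobp. The probes examined were all those present on both arrays whose accession belongs to 1 of these genes, which gave 12 of 39429 probes, or 10 of 21368 named genes, with 3 probes for Csf1r and 1 for each other gene.

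The ureters labelled cDKO carried Tbx18(cre/+), Tbx2(fl/fl) and Tbx3(fl/fl), so that Cre made from the Tbx18 locus acts on floxed alleles of the T-box factors Tbx2 and Tbx3. Control ureters carried Tbx18(+/+), Tbx2(fl/?) and Tbx3(fl/?), where 1 allele of each target is not specified. All embryos were of strain NMRI, and all groups carried at least 1 floxed allele of both genes. The Tbx18 locus is active in progenitors of the ureteric mesenchyme, so the deletion was not aimed at leukocytes or urothelium, and only the ureters labelled cDKO carry the Cre allele, which replaces 1 copy of Tbx18. Each of 2 two-colour Agilent arrays set 1 labelled cDKO RNA against 1 control RNA. In the female pair (replicate 1) the labelled cDKO RNA carried AlexaFluor647, and in the male pair (replicate 2) AlexaFluor555, so that the effects of sex and of dye orientation cannot be told apart. The sources used here do not say if embryos were pooled for an RNA, and p-values measure only the spread between these samples, which may be technical.

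Tissue-resident macrophages enter embryonic organs early, largely from the yolk sac and the fetal liver, and live among the cells of the mesenchyme. They depend on the receptor CSF1R and its ligands, clear dying cells, make the C1q subunits of complement, and signal through adaptors that carry an immunoreceptor tyrosine-based activation motif (ITAM). PTPRC (CD45) is present on nearly all leukocytes. The other markers belong mainly to macrophages and monocytes, with LYZ2, FCER1G and TYROBP also in granulocytes or natural killer cells.

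In the ureters labelled cDKO the macrophage and leukocyte markers had log2 ratios over control that were mostly a little above 0, but 0 of 10 genes passed the test in either direction. The median log2 ratio over the 10 genes, each by its brightest probe, was 0.15, with 0.16 (female pair) and 0.15 (male pair), against -0.0015 over all 25934 probes tested. Of the 10 genes, 9 were above 0 in both pairs, where 27.6% of all probes tested were, and C1qb was of opposite sign in the pairs, as were 44.5% of all probes. Another 27.9% of all probes and 0 of 12 member probes were below 0 in both pairs. The folds of the 12 probes lay between 1.01 and 1.25. At an adjusted p under 0.05 (limma, Benjamini-Hochberg over all probes tested), 1.88% of all probes tested were higher and 1.92% lower in the ureters labelled cDKO, against 0 of 12 member probes on each side. At an unadjusted p under 0.05, 5 of 12 member probes were higher, against 7.27% of all probes tested. Counted by gene on the brightest probe this was 4 of 10, since Csf1r has several probes. In the bulk ureters, more cells of a type and more RNA per cell cannot be told apart.

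Promoter windows are shown for the genes at the ends of the order of ratios, Lyz2 and Ptprc with the highest means and C1qc and Mrc1 with the lowest. The windows run from 250 bases before to 50 bases after a gene's start, on the gene's strand, from RefSeq (GRCm38.p6). They matched 7 of the 10 genes, Ptprc, Fcer1g, Mrc1, C1qb, C1qc, Lyz2 and Cd68, with 2 windows for Ptprc, of which 1 is shown. Capitals mark GAGGAA or GGAAGT, or their reverse complements TTCCTC and ACTTCC, letters that are found in binding sites of ETS factors such as PU.1, the product of Spi1.
Lyz2, chr10:117282223-117282522, minus strand: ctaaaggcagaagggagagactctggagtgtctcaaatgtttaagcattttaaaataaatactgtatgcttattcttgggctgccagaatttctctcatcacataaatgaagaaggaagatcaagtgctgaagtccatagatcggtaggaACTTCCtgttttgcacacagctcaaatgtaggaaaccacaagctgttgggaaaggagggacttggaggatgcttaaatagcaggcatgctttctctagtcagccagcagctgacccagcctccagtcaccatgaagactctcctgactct
Ptprc, chr1:138175256-138175555, minus strand: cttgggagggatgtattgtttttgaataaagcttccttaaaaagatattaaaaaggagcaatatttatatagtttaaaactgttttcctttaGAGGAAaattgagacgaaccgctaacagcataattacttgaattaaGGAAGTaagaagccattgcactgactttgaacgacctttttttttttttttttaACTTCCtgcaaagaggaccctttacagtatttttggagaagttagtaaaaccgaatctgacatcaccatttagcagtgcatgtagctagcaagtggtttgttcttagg
Mrc1, chr2:14229164-14229463, plus strand: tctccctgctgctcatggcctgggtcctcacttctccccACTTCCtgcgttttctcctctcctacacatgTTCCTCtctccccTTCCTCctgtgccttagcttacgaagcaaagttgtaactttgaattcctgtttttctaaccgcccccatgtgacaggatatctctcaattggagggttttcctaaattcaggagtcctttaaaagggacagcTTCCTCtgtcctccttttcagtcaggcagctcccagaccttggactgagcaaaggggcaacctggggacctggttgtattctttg
C1qc, chr4:136892865-136893164, minus strand: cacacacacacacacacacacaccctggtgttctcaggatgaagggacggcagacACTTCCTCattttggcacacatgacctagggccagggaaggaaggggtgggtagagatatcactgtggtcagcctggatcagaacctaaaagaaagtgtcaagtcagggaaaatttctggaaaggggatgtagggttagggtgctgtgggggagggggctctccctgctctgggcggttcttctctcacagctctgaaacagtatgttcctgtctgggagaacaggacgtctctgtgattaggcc

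The Lyz2 window held 0 copies of GAGGAA and 1 of GGAAGT, counting both strands, and the Ptprc window shown held 1 and 2. The Ptprc window that is not shown held fewer, 0 and 1. The Mrc1 window held 3 copies of GAGGAA and 1 of GGAAGT. In the C1qc window 1 copy of each overlapped, since GAGGAA and GGAAGT share letters. Of 32851 promoter windows of this length, 28.3% held GAGGAA, 23.8% held GGAAGT and 43.4% held either. Of the 7 member genes with a window, 6 held either, and Fcer1g held neither. The pair of motifs was chosen with these windows in view, and a match is a description of letters. Genes at both ends of the order of ratios held a match.

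The general leukocyte gene and the lysozyme gene had the highest ratios by gene. Lyz2 encodes lysozyme M, a secreted enzyme that breaks bacterial cell walls. Its log2 intensity was 11.94 in the female and 12.09 in the male ureters labelled cDKO, against 11.62 in the female and 11.77 in the male control ureters. Both labelled cDKO levels were above both control levels. The log2 ratio was 0.32 (female pair) and 0.32 (male pair), with a mean of 0.32 ± 0.00073 (SD, n = 2 pairs), or 1.25-fold, and a 95% interval of 0.16 to 0.48. It did not pass (adjusted p = 0.0584), but did in 3 of 13 alternatives (adjusted p from 0.0300 to 0.290 over all 13). All 8 spots of the probe lay between 0.29 and 0.35. Of all probes tested, 97.3% had a lower mean ratio, and 422 of 25934 probes, Lyz2 included, were at least as high in both pairs. This is the promoter shown above with a single GGAAGT match.

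Lyz2 has a close relative, Lyz1, the lysozyme of Paneth cells of the gut. Its probe had a log2 ratio of 0.59 (female pair) and 0.10 (male pair), with a mean of 0.34 ± 0.34 (SD, n = 2 pairs, adjusted p = 0.230). Cross-hybridisation between the 2 lysozyme transcripts was not tested. The female ratio of Lyz1 was above and the male ratio below those of Lyz2.

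Ptprc encodes CD45, the receptor-type tyrosine phosphatase that sets the threshold of antigen receptor signalling. Its log2 intensity was 8.21 in the female and 8.30 in the male ureters labelled cDKO, against 7.92 and 8.02 in the female and male control ureters. The groups did not overlap. The log2 ratio was 0.29 (female pair) and 0.28 (male pair), with a mean of 0.29 ± 0.012 (SD, n = 2 pairs), or 1.22-fold, and a 95% interval of 0.13 to 0.44. It did not pass (adjusted p = 0.0830), except with the median of pixels in place of the mean (adjusted p = 0.0427, and up to 0.424 over the 13 alternatives), and 96.7% of all probes tested had a lower mean ratio. The mean log2 ratio of Ptprc was 0.39 both with the scanner software's processed signals and with the deposited value table. In each it was above that of Lyz2, 0.33. The 4 spots of the male pair ranged from 0.079 to 0.41, the widest spread of the 12 member probes, while those of the female pair ranged from 0.24 to 0.33.

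**Figure D1:**
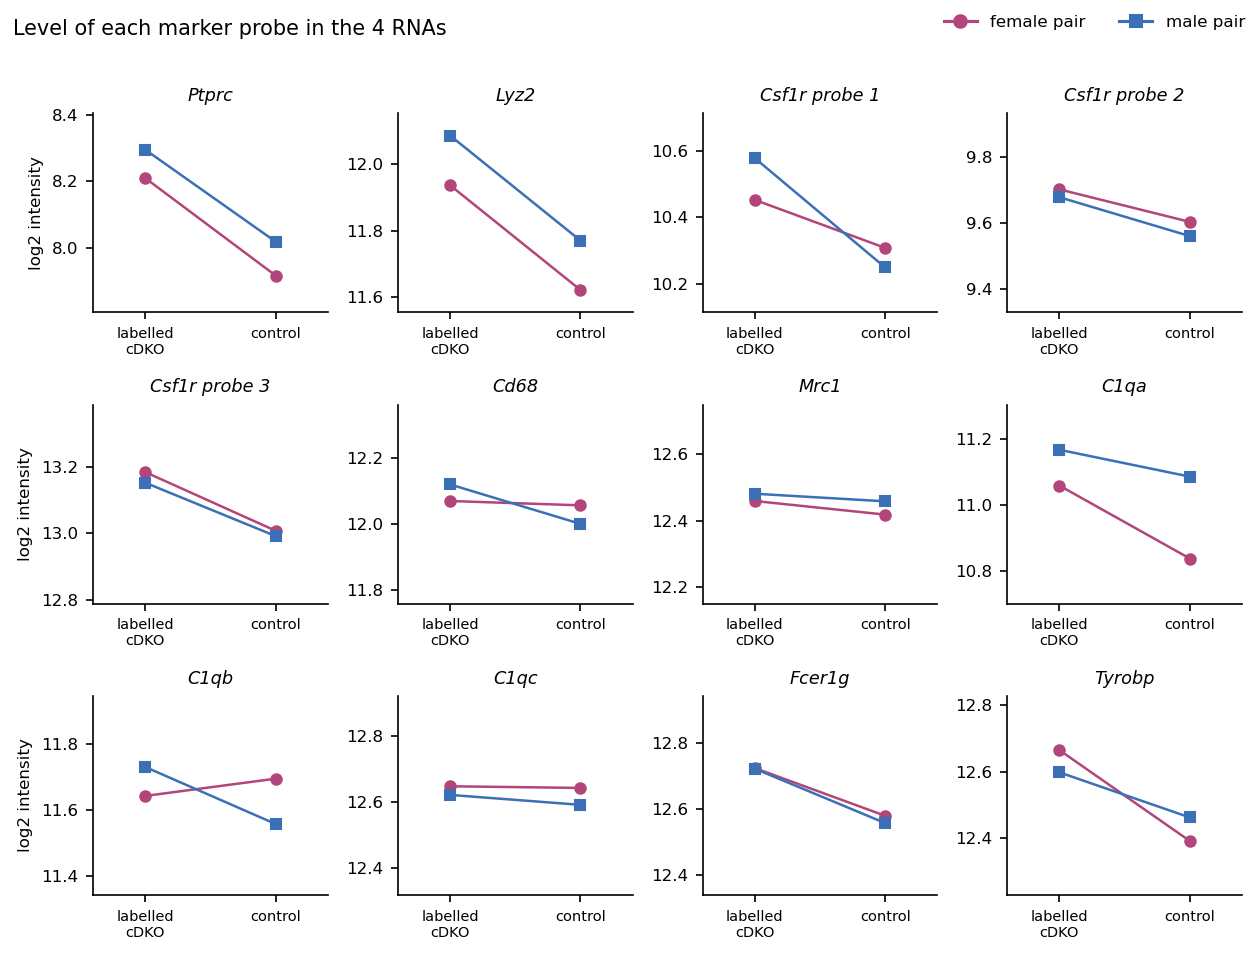
Log2 intensity of the 12 member probes in the 4 RNAs, labelled cDKO on the left and control on the right of each panel, with a line joining the RNAs of 1 array (circles, female pair; squares, male pair). Each panel has its own range of the same length, since levels of different probes cannot be compared. Lines slope down to control in both pairs for 11 of 12 probes, and for C1qb the female line slopes up.

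Of the 12 probes, 9 had both labelled cDKO levels above both control levels, against 17.6% of all probes tested. The 3 whose groups overlapped were the C1q subunits, C1qa, C1qb and C1qc. Among the 9, each probe of Csf1r is counted, and some gaps were narrow. The lowest labelled cDKO level of Mrc1 was 12.459 against a highest control level of 12.458, and for Cd68 12.069 against 12.056. All 12 passed the filter on dim probes, and in the 4 channels every spot of them was well above background, so no ratio is a bound.

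Csf1r encodes the receptor for CSF1 and IL34, on which the survival and growth of most tissue macrophages depend. Its brightest probe had log2 intensities of 13.19 in the female and 13.15 in the male ureters labelled cDKO, against 13.01 and 12.99 in the female and male control ureters. The log2 ratio was 0.18 (female pair) and 0.16 (male pair), with a mean of 0.17 ± 0.012 (SD, n = 2 pairs), or 1.12-fold, and a 95% interval of 0.010 to 0.33. It did not pass (adjusted p = 0.322).

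The other probes of Csf1r pointed the same way with different sizes. One had log2 intensities of 10.45 and 10.58 in the female and male ureters labelled cDKO, against 10.31 and 10.25 in the female and male control ureters, and a mean log2 ratio of 0.24 ± 0.13 (SD, n = 2 pairs, adjusted p = 0.199). The other had 9.70 and 9.68 in the female and male ureters labelled cDKO, against 9.60 and 9.56 in the female and male control ureters, and a mean log2 ratio of 0.11 ± 0.014 (SD, n = 2 pairs, adjusted p = 0.616). The 3 probes share the RNA of 1 gene, and their labelled cDKO and control levels did not overlap for any of them. The 95% intervals of their means, 0.010 to 0.33 for the brightest probe, 0.057 to 0.42 for the probe with the highest ratio and -0.052 to 0.27 for the probe with the lowest, overlap.

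Fcer1g and Tyrobp encode the adaptors FcR gamma and DAP12, small membrane proteins that carry an ITAM and couple Fc receptors, TREM2 and other receptors to the kinase SYK. Tyrobp had log2 intensities of 12.67 in the female and 12.60 in the male ureters labelled cDKO, against 12.39 and 12.46 in the female and male control ureters. Its log2 ratio was 0.27 (female pair) and 0.14 (male pair), with a mean of 0.21 ± 0.098 (SD, n = 2 pairs), or 1.15-fold, and a 95% interval of 0.034 to 0.38 (adjusted p = 0.250). The groups did not overlap, and every one of its 8 spots was above 0. Fcer1g had log2 intensities of 12.72 in both the female and the male ureters labelled cDKO, against 12.58 and 12.56 in the female and male control ureters. Its log2 ratio was 0.14 (female pair) and 0.16 (male pair), with a mean of 0.15 ± 0.014 (SD, n = 2 pairs), or 1.11-fold, and a 95% interval of -0.0056 to 0.31 (adjusted p = 0.385). Its groups did not overlap either, and neither adaptor passed the test.

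Cd68 and Mrc1 encode surface and lysosomal proteins of the mature macrophage, and their ratios were close to 0. Cd68, a heavily glycosylated lysosomal membrane protein, had log2 intensities of 12.07 in the female and 12.12 in the male ureters labelled cDKO, against 12.06 and 12.00 in the female and male control ureters. Its log2 ratio was 0.013 (female pair) and 0.12 (male pair), with a mean of 0.066 ± 0.075 (SD, n = 2 pairs), or 1.05-fold, and a 95% interval of -0.10 to 0.23 (adjusted p = 0.854). All spots of both pairs were above 0, but in the female pair they lay between 0.0059 and 0.018. Mrc1, the mannose receptor CD206 that takes up glycoproteins, had log2 intensities of 12.46 in the female and 12.48 in the male ureters labelled cDKO, against 12.42 and 12.46 in the female and male control ureters. Its mean log2 ratio was 0.032 ± 0.014 (SD, n = 2 pairs), or 1.02-fold, with a 95% interval of -0.13 to 0.19 (adjusted p = 0.955). The intervals of both genes include 0 and reach the mean of Csf1r, so 2 pairs do not set them apart from it. Mrc2, a relative of Mrc1 found on fibroblasts, had a mean log2 ratio of -0.029 ± 0.066 (SD, n = 2 pairs, adjusted p = 0.962), and its sign turned with median centring in place of loess.

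C1qa, C1qb and C1qc encode the A, B and C chains that together form C1q, the recognition subunit that starts the classical complement pathway. They neighbour each other on chromosome 4 in the order C1qb, C1qc, C1qa with no annotated gene between them. C1qa had log2 intensities of 11.06 in the female and 11.17 in the male ureters labelled cDKO, against 10.84 and 11.09 in the female and male control ureters. Its log2 ratio was 0.22 (female pair) and 0.080 (male pair), with a mean of 0.15 ± 0.098 (SD, n = 2 pairs), or 1.11-fold, and a 95% interval of -0.022 to 0.32 (adjusted p = 0.451). The female labelled cDKO level lay below the male control level, although each pair was higher in the ureter labelled cDKO.

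C1qb was the only member probe whose pairs differed in sign. Its log2 intensity was 11.64 in the female and 11.73 in the male ureters labelled cDKO, against 11.70 and 11.56 in the female and male control ureters. The log2 ratio was -0.052 (female pair) and 0.17 (male pair), with a mean of 0.060 ± 0.16 (SD, n = 2 pairs), or 1.04-fold, and a 95% interval of -0.13 to 0.25 (adjusted p = 0.907). In the female pair 0 of 4 spots were above 0 and in the male pair 4 of 4, so the spots of each pair were closer to each other than the pairs were. C1qc had log2 intensities of 12.65 in the female and 12.62 in the male ureters labelled cDKO, against 12.64 and 12.59 in the female and male control ureters. Its log2 ratio was 0.0053 (female pair) and 0.029 (male pair), with a mean of 0.017 ± 0.017 (SD, n = 2 pairs), or 1.01-fold, and a 95% interval of -0.14 to 0.18 (adjusted p = 0.978). Its spots lay on both sides of 0 in each pair, 2 of 4 above. The order of the pairs was thus not shared by the 3 chains, with C1qa higher in the female pair and C1qb in the male.

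**Figure D2:**
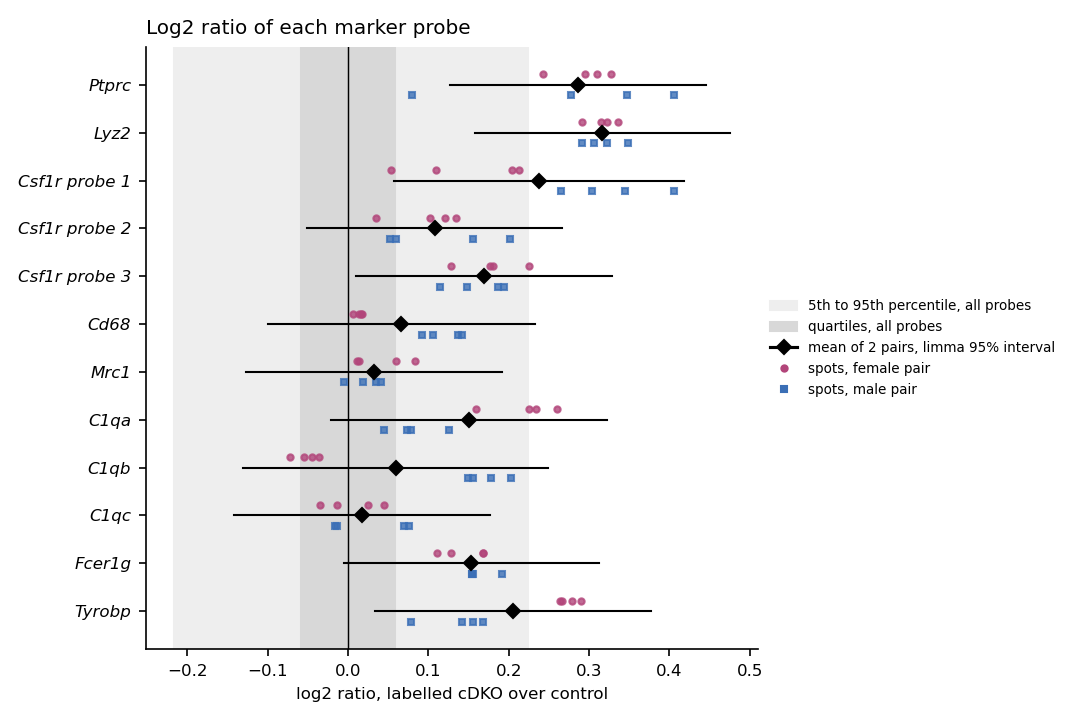
Log2 ratio of labelled cDKO over control for the 12 member probes, as the 4 spots of each pair (small circles, female; small squares, male) and as the mean of the 2 pairs with its limma 95% interval (diamonds and lines). The light band spans the 5th to 95th percentile of all 25934 probes tested, -0.22 to 0.22, and the dark band their quartiles, -0.059 to 0.059. Ptprc, Lyz2 and 1 Csf1r probe have means beyond the light band, and C1qc and Mrc1 lie in the dark band.

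Ordered by mean log2 ratio, the genes ran from Lyz2 (0.32) and Ptprc (0.29) through Tyrobp (0.21), Csf1r (0.17), Fcer1g (0.15) and C1qa (0.15) to Cd68 (0.066), C1qb (0.060), Mrc1 (0.032) and C1qc (0.017). The interval of each gene includes the mean of its neighbours in this order, so neighbouring genes do not differ beyond their error. Lyz2 and Ptprc changed places with the processed signals and with the deposited value table. The SD between the spots of a probe lay between 0.0052 and 0.14, and the SD between pairs between 0.00073 and 0.16.

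**Figure D3:**
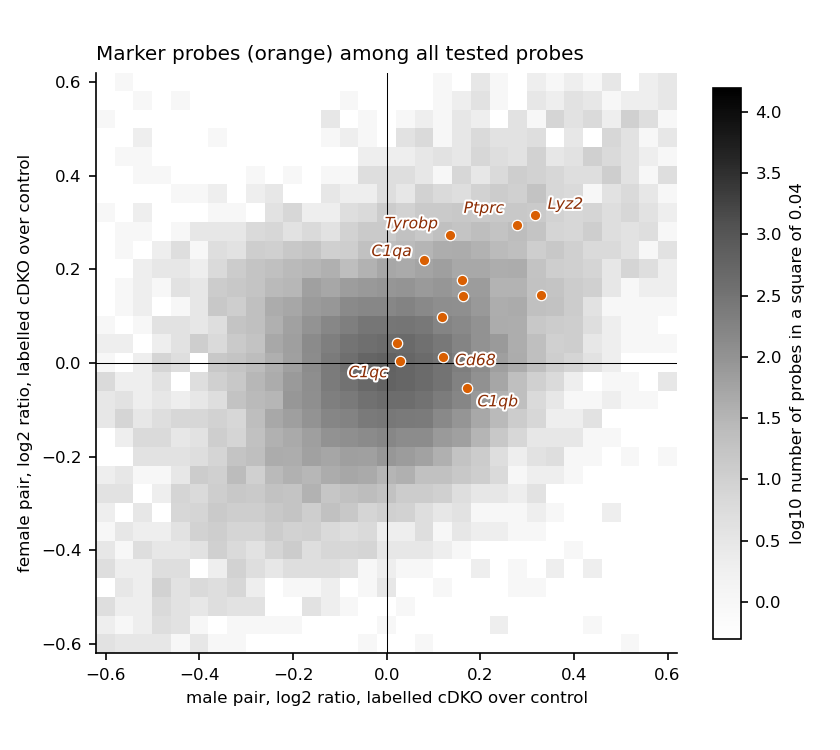
Log2 ratio of labelled cDKO over control in the female pair (vertical axis) against that in the male pair (horizontal axis), for the 12 member probes (orange, not all named) over the density of all 25934 probes tested (grey, log10 number of probes in squares 0.04 wide). Of the member probes, 11 of 12 lie in the upper right part of the plot, where 27.6% of all probes lie, and C1qb lies in the lower right.

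The genotype was checked on the targeted genes. Tbx3 had log2 intensities of 14.08 and 14.06 in the female and male ureters labelled cDKO, against 15.24 and 15.08 in the female and male control ureters, a mean log2 ratio of -1.09 ± 0.10 (SD, n = 2 pairs, adjusted p = 0.000623). Tbx2 had 13.07 and 12.89 in the female and male ureters labelled cDKO, against 12.13 and 12.12 in the female and male control ureters, a mean of 0.86 ± 0.12 (SD, n = 2 pairs, adjusted p = 0.00184), which goes against the label at this transcript. The sources used here do not place either probe inside or outside the deleted exons. Spots well above background made up 70.8% (female pair) and 71.6% (male pair) in the green channel and 66.9% and 64.3% in the red, and 0 were saturated. Precision throughout is limited by the number of arrays.

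Other macrophage genes, 26 of which are reported here, were next compared. Of 24 that could be tested, 1 rose, 0 fell and 23 did not pass, and 18 were above 0 in both pairs, against 1.88% higher, 1.92% lower and 27.6% above 0 in both pairs among all probes tested. At an unadjusted p under 0.05 there were 11 of 24, against 7.27% higher among all probes. Their median log2 ratio was 0.15, with 0.15 in each pair. The gene that rose was Fcgr2b, the inhibitory Fc gamma receptor. It had log2 intensities of 8.83 in the female and 9.003 in the male ureters labelled cDKO, against 8.39 and 8.59 in the female and male control ureters. Its log2 ratio was 0.44 (female pair) and 0.41 (male pair), with a mean of 0.42 ± 0.022 (SD, n = 2 pairs, adjusted p = 0.0201). The call was lost with median centring (0.44, adjusted p = 0.115) and with the deposited value table (0.56, adjusted p = 0.0657), where the log2 ratio was not smaller.

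Further genes of this list are named here after their values were seen. Adgre1, which encodes a surface receptor widely used to mark mouse macrophages, had a mean log2 ratio of 0.20 ± 0.021 (SD, n = 2 pairs, adjusted p = 0.213). The lineage transcription factors Irf8 and Spi1, which encodes PU.1, were at 0.22 ± 0.027 and 0.17 ± 0.20, with adjusted p-values of 0.176 and 0.495. Trem2, a receptor that signals through the Tyrobp product, was at 0.085 ± 0.092, and Cd14, the co-receptor for lipopolysaccharide, at -0.16 ± 0.11 (SD, n = 2 pairs). None of these 5 passed. Itgam, the integrin chain CD11b, had 3 probes with mean log2 ratios of -0.089, 0.12 and -0.0068, so its sign depended on the probe. Cd163 and Timd4, a scavenger receptor and a receptor for dying cells, were not well above background in any of the 4 channels and were not tested.

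The ligands of CSF1R and the chemokines that draw monocytes did not pass. Of 10 genes tested of 12, 0 rose and 0 fell, and the median log2 ratio was 0.14. Higher at an unadjusted p under 0.05 were 4, against 7.27% of all probes, and 7 were above 0 in both pairs, against 27.6%. The members with the highest absolute means were Ccl7, a chemokine for monocytes, at 0.30 ± 0.22 (SD, n = 2 pairs, adjusted p = 0.180), and its receptor Ccr2 at 0.30 ± 0.22 (adjusted p = 0.176). The ligands of CSF1R are named after their values were seen. Csf1 had mean log2 ratios of 0.056, 0.087 and 0.038 on its 3 probes, and Il34 had 0.082 ± 0.052. These values lie below that of Csf1r itself on its brightest probe, a difference that was not tested.

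Genes that act after the ITAM adaptors did not pass either. Of 11 tested of 14, 0 rose and 0 fell, and the median log2 ratio was 0.10. Higher at an unadjusted p under 0.05 were 5, against 7.27% of all probes, and 8 were above 0 in both pairs, against 27.6%. Syk, the kinase that binds the phosphorylated ITAM, had log2 intensities of 11.01 and 10.98 in the female and male ureters labelled cDKO, against 10.74 and 10.76 in the female and male control ureters. Its mean log2 ratio was 0.24 ± 0.036 (SD, n = 2 pairs, adjusted p = 0.142), and that of Plcg2, the phospholipase it activates, was 0.20 ± 0.041 (adjusted p = 0.225).

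Of the other complement genes reported here, 12 of 15 were tested and 0 passed in limma, with a median log2 ratio of 0.15. Higher at an unadjusted p under 0.05 were 5, against 7.27% of all probes, and 7 were above 0 in both pairs, against 27.6%. C4b, the C4 component that C1q-bound proteases cut, had log2 intensities of 8.39 in the female and 8.13 in the male ureters labelled cDKO, against 7.82 and 7.92 in the female and male control ureters. Its mean log2 ratio was 0.39 ± 0.25 (SD, n = 2 pairs, adjusted p = 0.0987), with groups that did not overlap. Cd55, a membrane protein that speeds the decay of complement convertases, had 12.18 in the female and 12.49 in the male ureters labelled cDKO, against 12.08 and 12.00 in the female and male control ureters. Its mean was 0.30 ± 0.28 (SD, n = 2 pairs, adjusted p = 0.240), larger in the male pair. The means of the 3 C1q chains were also above 0 and did not pass.

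Genes of antigen presentation held 3 of the calls. Of 11 tested of 12, 3 rose, 0 fell and 8 did not pass, where 1.88% of all probes tested were higher. At an unadjusted p under 0.05 there were 5 of 11 in either direction, including H2-D1 below 0. Of all probes tested, 7.27% were higher at that threshold, and the share in either direction was not counted. The median log2 ratio of the list was 0.076. H2-Aa and H2-Ab1 encode the chains of the class II molecule H2-A, and Cd74 encodes the invariant chain that escorts it. H2-Aa had log2 intensities of 8.91 in the female and 8.87 in the male ureters labelled cDKO, against 8.37 and 8.44 in the female and male control ureters, a mean log2 ratio of 0.49 ± 0.076 (SD, n = 2 pairs, adjusted p = 0.0145). H2-Ab1 had a mean of 0.42 ± 0.0064 (SD, n = 2 pairs, adjusted p = 0.0204) and 0.39 on a second probe (adjusted p = 0.029), and Cd74 0.39 ± 0.091 (SD, n = 2 pairs, adjusted p = 0.0342). The 3 transcripts are those of class II presentation by macrophages, dendritic cells and B cells.

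The calls of H2-Aa, H2-Ab1 and Cd74 were lost with median centring (adjusted p from 0.0709 to 0.192) and with the deposited value table (adjusted p from 0.0545 to 0.102). Their log2 ratios were 0.50, 0.44 and 0.41 with median centring and 0.63, 0.53 and 0.45 in the table, none below those reported. Named after their values were seen, H2-Eb1, a chain of the second class II molecule, was at -0.088 ± 0.11 (SD, n = 2 pairs, adjusted p = 0.775), and H2-D1, a class I molecule, at -0.25 ± 0.051 (adjusted p = 0.137). Ciita, the transactivator of class II genes, was not well above background in any channel. The means of the class II genes thus had both signs.

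**Figure D4:**
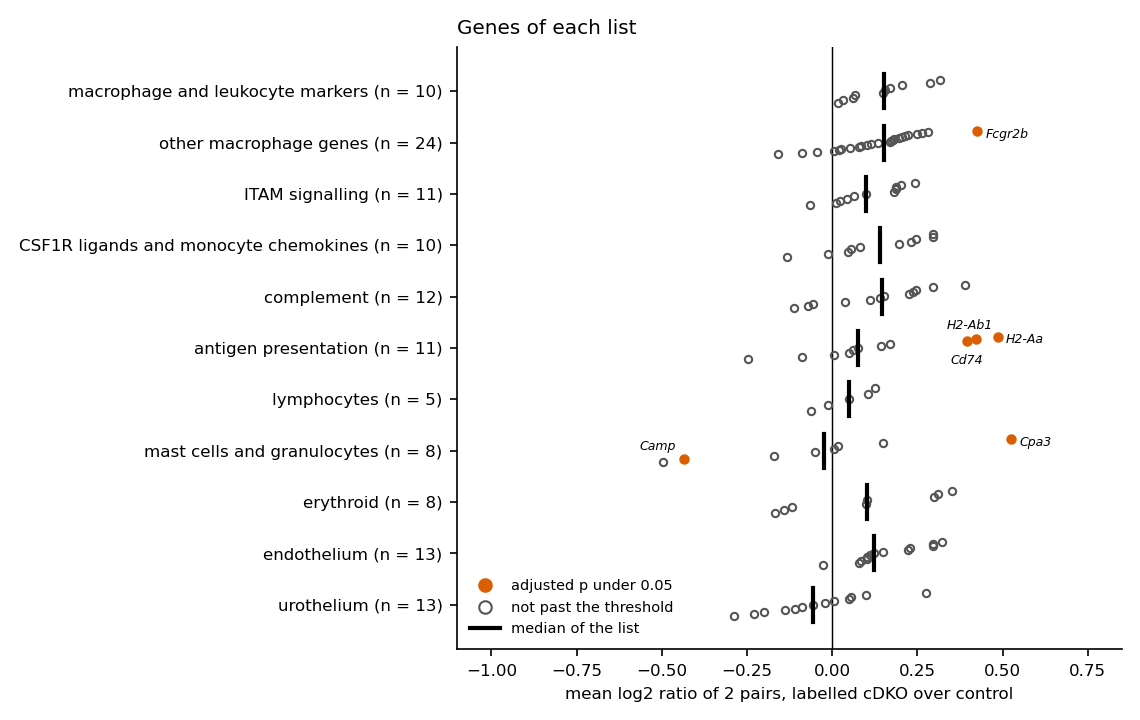
Mean log2 ratio over 2 pairs of labelled cDKO over control, 1 point for each tested gene by its brightest probe, in the macrophage and leukocyte markers and 10 other lists (filled, adjusted p under 0.05; open, not past the threshold; bar, median of the list). The markers have no filled point. Their median is 0.15, beside 0.15 for other macrophage genes, 0.15 for complement and 0.14 for CSF1R ligands and monocyte chemokines. That of endothelium is 0.12, of erythroid genes 0.10 and of urothelium -0.057. The list of ureteric mesenchyme and smooth muscle, with a median of -1.51, is left out for scale.

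Markers of other cells were measured beside these values, with levels given as the mean log2 intensity over the tested genes of a list. Over the 10 macrophage and leukocyte markers this level was 11.86 in the female and 11.90 in the male ureters labelled cDKO, against 11.72 and 11.75 in the female and male control ureters. Lymphocyte markers could be tested for 5 of 16 genes, with 0 calls and 0 at an unadjusted p under 0.05 (all probes tested: 7.27% higher). Their level was 10.25 and 10.16 in the female and male ureters labelled cDKO, against 10.21 and 10.12 in the female and male control ureters. The highest means were those of Cd79b, a B cell receptor chain, at 0.13 ± 0.11 (SD, n = 2 pairs, adjusted p = 0.574), and Cd3e, a T cell receptor chain, at 0.10 ± 0.025 (adjusted p = 0.637). Means below 0, named after their values were seen, were those of Lck, at -0.062 ± 0.042 (SD, n = 2 pairs, adjusted p = 0.863), and Cd4, at -0.013 ± 0.045 (adjusted p = 0.985). The median log2 ratio of the list was 0.050, with 0.0082 (female pair) and 0.048 (male pair). Of the 5 tested, 3 were above and 1 below 0 in both pairs, against 27.6% and 27.9% of all probes. Of the defining markers, Cd3d, Cd3g, Cd8a, Cd79a, Ms4a1 and Ncr1 were not well above background in any of the 4 channels.

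Markers of mast cells and granulocytes were mixed. Of 8 tested of 14 on the arrays, 1 rose and 1 fell, against 1.88% higher and 1.92% lower among all probes tested. The median log2 ratio was -0.024, and 5 of the 8 were of opposite sign in the pairs, against 44.5% of all probes. Cpa3, the carboxypeptidase of mast cell granules, had log2 intensities of 9.77 in the female and 9.95 in the male ureters labelled cDKO, against 9.15 and 9.52 in the female and male control ureters, a mean log2 ratio of 0.52 ± 0.14 (SD, n = 2 pairs, adjusted p = 0.0156). Its call was lost with the scanner software's processed signals (0.59, adjusted p = 0.0549) and with the deposited value table (0.59, adjusted p = 0.0788), where the log2 ratio was not smaller. The mast cell genes Mcpt4, Ms4a2 and Fcer1a did not pass the filter on dim probes. The mast cell proteases Cma1 and Tpsb2, named after their values were seen, did not pass, with mean log2 ratios of 0.15 ± 0.16 (SD, n = 2 pairs, adjusted p = 0.519) and -0.052 ± 0.12 (adjusted p = 0.917). Camp, a peptide of neutrophil granules, fell by 0.43 ± 0.039 on the log2 scale (SD, n = 2 pairs, adjusted p = 0.0193), and its second probe was at -0.26 (adjusted p = 0.112). The call of Camp was lost with median centring (adjusted p = 0.129). S100a8 and S100a9, the abundant calcium-binding proteins of neutrophils, named after their values were seen, were above 0 in the female pair (0.40 and 0.50) and below 0 in the male pair (-0.74 and -1.49).

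Blood and vessel genes were set beside these. Of 8 erythroid genes tested and reported here, 0 passed. At an unadjusted p under 0.05 there were 3 in either direction, where 7.27% of all probes tested were higher. Of these 8, 4 were above and 2 below 0 in both pairs, against 27.6% and 27.9% of all probes tested. Their median log2 ratio was 0.10, with 0.12 (female pair) and 0.0044 (male pair). Alas2, the first enzyme of haem synthesis in red cells, was at 0.35 ± 0.21 (SD, n = 2 pairs, adjusted p = 0.103), and Hba-a1, an alpha globin whose probe may also bind its near-identical copy, at 0.31 ± 0.31 (adjusted p = 0.250). The genes below 0 in both pairs, named after their values were seen, were Klf1, a transcription factor of red cells, at -0.17 ± 0.026 (SD, n = 2 pairs, adjusted p = 0.328), and Epor, the erythropoietin receptor, at -0.12 ± 0.031 (adjusted p = 0.565). The erythroid level was 14.54 and 14.34 in the female and male ureters labelled cDKO, against 14.33 and 14.37 in the female and male control ureters. Of 13 endothelial genes tested, 0 rose and 0 fell, and the median was 0.12. Higher at an unadjusted p under 0.05 were 4, against 7.27% of all probes, and 10 were above 0 in both pairs, against 27.6%. Kdr, the receptor VEGFR2, was at 0.30 ± 0.094 (SD, n = 2 pairs, adjusted p = 0.0912) and at 0.13 on a second probe (adjusted p = 0.485), and Egfl7, a secreted protein of vessels, at -0.20 (female pair) and 0.85 (male pair). The endothelial level was 13.24 and 13.35 in the female and male ureters labelled cDKO, against 13.14 and 13.13 in the female and male control ureters. The part of blood in the vessels in the values of the macrophage and leukocyte markers was not tested.

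Genes of the cells of the ureter itself were compared as well. Of 12 genes of ureteric mesenchyme and smooth muscle, 1 rose, 7 fell and 4 did not pass (all probes tested: 1.88% higher, 1.92% lower). Their median log2 ratio was -1.51, with 3 above and 8 below 0 in both pairs. Their level was 12.10 in both the female and the male ureters labelled cDKO, against 13.55 and 13.72 in the female and male control ureters. The contractile genes Acta2, Cnn1, Myh11 and Actg2 fell, with mean log2 ratios of -3.04, -3.05, -3.44 and -3.55 (adjusted p from 1.93e-05 to 5.46e-05). Above 0 in both pairs, and named after their values were seen, were Bmp4, Tbx18 and Tshz3. Bmp4, the gene that rose, was at 0.36 ± 0.026 (SD, n = 2 pairs, adjusted p = 0.0403). Tbx18 and Tshz3 were at 0.15 ± 0.0011 and 0.15 ± 0.0029 (adjusted p = 0.394 and 0.395). Of 13 genes of the urothelium, 0 rose and 0 fell, with a median of -0.057. At an unadjusted p under 0.05 there were 4 in either direction, where 7.27% of all probes tested were higher. Upk1b and Upk3a, proteins of the urothelial plaque, were at -0.29 ± 0.15 (SD, n = 2 pairs, adjusted p = 0.132) and 0.27 ± 0.041 (adjusted p = 0.0974). Ratios are relative to all RNA in a ureter, and the part of the fall of smooth muscle RNA in the values of the macrophage and leukocyte markers was not tested.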

How the data were processed

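Agilent Feature Extraction 10.7.3.1 read each two-colour array, per the submitters' processing notes. Per the file headers, the deposited scanner files give raw spot and local background intensities for both channels, with background-subtracted and dye-normalized intensities beside them. The deposited value table gives a signed fold as a score per probe, made in a way not given in the sources used here. Its log2 values correlated with the scanner ratios at 0.956 (female) and 0.960 (male), which settled its direction, its median was 1 in both columns, and its floor and centring are unknown.

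From the scanner files, mean intensities were corrected with normexp (offset 50), normalized by loess within each array without control spots, and turned to log2 ratios of labelled cDKO over control. Non-uniform spots (186 female, 223 male) were left out, and the 4 spots of a probe were averaged. A probe was tested if a share of spots above 0.5 was well above background on both arrays, for either the labelled cDKO or the control RNA, leaving 25934 of 39429. Channel levels also had average intensities set to 1 distribution. Accessions were named through a RefSeq gene table of GRCm38.p6, which named 28328 probes and left 11101 without a symbol. The build of the array design is not stated. Ratios were tested with limma 3.58.1 in R 4.3.3 (lmFit, eBayes, 1 residual and 5.65 prior degrees of freedom) with Benjamini-Hochberg adjustment over all tested probes. Both arrays shared 1 slide and 1 scan. The procedure was tested on simulated data.

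The 10 genes and the lists were chosen with earlier results of these data known. All probes of the 10 genes and the genes Tbx2 and Tbx3 are named, and from each list up to 4 genes past the threshold by absolute mean ratio, or the 2 highest where none passed. Genes named outside this rule are said to be so. Some genes of the lists are not reported here, and counts, medians and levels of the lists leave them out. The alternatives were other background corrections, spot summaries, normalizations, filters on dim probes, probe rules and variance models, the deposited value table, and each replicate left out.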

Additional observations from a re-analysis of the deposited data

Results flagged for a closer look

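Listed here are the genes named by rule and the list medians whose sign was opposite in the female and the male pair, and other list genes of opposite sign whose pairs differed by more than 1 log2 unit. Other list genes of opposite sign are left out. With 1 pair for each sex and the dyes exchanged between them, the differences between the pairs were not tested, and the effects of sex and of dye orientation cannot be told apart. Differences are given as male minus female log2 ratio.

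Among the macrophage and leukocyte markers this was C1qb alone, with -0.052 (female pair) and 0.17 (male pair), a difference of 0.224. Its neighbours C1qa and C1qc were above 0 in both pairs. Mrc2, the relative of Mrc1, had -0.075 (female pair) and 0.018 (male pair), a difference of 0.0932.

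The differences in genes of other lists were as follows. S100a9 had 0.50 (female pair) and -1.49 (male pair) (-1.99), and S100a8 had 0.40 and -0.74 (-1.14). The chemokine Ccl4, named after its values were seen, had 0.84 (female pair) and -0.87 (male pair) (-1.71), and Egfl7 had -0.20 and 0.85 (1.06). The median of the list of mast cells and granulocytes was 0.081 (female pair) and -0.11 (male pair) (-0.195), and that of the urothelium 0.014 and -0.075 (-0.0887).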

How the results depend on the processing

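The mean log2 ratio of none of the 12 marker probes changed sign in the 13 alternatives that kept both pairs (11 or 12 for a probe of Csf1r, since a fit by gene uses 1 value). The median over the 10 genes was 0.15 as reported and 0.18 with median centring. Leaving out a replicate gave 0.15 to 0.16. The number of genes past the threshold was 2 with the median of pixels (Ptprc, adjusted p = 0.0427, and Lyz2, adjusted p = 0.0364), 1 with no filter on dim probes (Lyz2, adjusted p = 0.0406) and 1 with an intensity trend in eBayes (Lyz2, adjusted p = 0.0300), against 0 as reported. Genes above 0 in both pairs numbered 7 with median centring and 8 with the median of pixels, against 9 as reported.

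Over all probes, 487 higher and 499 lower as reported became 176 and 202 with median centring, 178 and 197 with the deposited value table, and 305 and 302 with the processed signals. Cd74 also lost its call with the processed signals (adjusted p = 0.0805). Upk3a gained one with the intensity trend (adjusted p = 0.0457). Tbx2, Tbx3 and the 4 contractile genes kept theirs in all 13. Sign changed for Mrc2 with median centring (0.0035) and the value table (0.0084), and for Ccl4 (-0.011 as reported) with the processed signals (0.0039), median centring (0.032), scaling between arrays (0.031) and the value table (0.0059). With 1 replicate left out, C1qb ranged from -0.052 to 0.17, Egfl7 from -0.20 to 0.85, Mrc2 from -0.075 to 0.018, S100a8 from -0.74 to 0.40, S100a9 from -1.49 to 0.50 and Ccl4 from -0.87 to 0.84. The cause of these changes was not tested.

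The test is itself paired within arrays. No paired analysis was possible beyond it, because there is 1 group of ratios. With 1 residual degree of freedom the p-values lean on the spread pooled over probes. Signal over background left 11 of 16 lymphocyte genes untested.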
